A study of Mus musculus with 4 samples.

Results

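Gene expression in the stroma of the mouse uterus was compared between a library labelled as a knockout of Msx1 and Msx2 and a library of floxed control tissue. Of 23235 rows in the deposited stroma table, 7018 named genes were kept, those whose mean over both libraries reached 1 RPKM (reads scaled to transcript length and to the mapped reads of the library). Small RNA and unnamed gene models were left out. The genes are described by the size of log2((labelled knockout + 1)/(control + 1)), and "at least 2-fold" or "2-fold apart" means a value of at least 1 in size on that scale. A low gene can therefore have a plain ratio over 2 and still not be counted. The control carried floxed alleles of both genes (Msx1 f/f/Msx2 f/f) and the knockout deleted alleles of both (Msx1 d/d/Msx2 d/d). The series describes the deletion as specific to the uterus and speaks of 1 mouse of each genotype. The driver of the Cre recombinase, the exons removed and the age and background strain of the mice are not given in the sources used here. Both uteri came from pseudopregnant females, mated with a vasectomized male so that no embryos form, on day 4 after mating, and stroma was cut out by laser capture microdissection. Of the 4 libraries of the series, 2 are from stroma and 2 from luminal epithelium, 1 for each genotype. Genotype and animal are therefore the same contrast, no difference below has a replicate check, and "higher" and "lower" describe these libraries only.

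The stroma is the connective tissue between the epithelium that lines the uterine cavity and the muscle of the wall. Its fibroblasts carry receptors for progesterone and estrogen, receive hedgehog signals from the epithelium, and turn into decidual cells when an embryo attaches. It also holds vessels and leukocytes, chiefly macrophages and uterine natural killer cells, and its collagen network is remodelled before attachment. MSX1 and MSX2 are homeobox transcription factors.

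The targeted genes could not check the labels here, because both were barely detected in stroma. Msx1 was at 0.0467 RPKM in control against 0.0207 RPKM in labelled knockout, 0.443 times the control level (95% counting limits 0.0385 and 4.03). Msx2 was at 0.135 against 0.0564 RPKM, 0.419 times the control level (limits 0.153 and 1.11.) In luminal epithelium, where both genes were kept, the rows disagreed. Msx1 ran with the label, at 23.2 RPKM in control against 13.6 RPKM, as did its antisense gene Msx1as at the same locus, at 39.0 against 2.15 RPKM. Msx2 went against it, at 1.31 against 2.06 RPKM. The epithelial control library was shallow, at an estimated 6.36 M reads, and no counting limits were computed in epithelium, so the direction of Msx2 is uncertain. The name "labelled knockout" is therefore used throughout, and each direction rests on the labels. The limits given with ratios are exact binomial (Clopper-Pearson) limits on read numbers that were estimated from the spacing of the deposited values. Such limits are approximate and hold only the error of counting reads, which are not independent molecules after amplification, and not the spread between mice. Depth came to an estimated 43.2 M reads in control and 62.5 M in labelled knockout, so that a transcript of 2 kb at 1 RPKM rested on about 77.8 and 112 reads. The 10 most abundant genes, led by small RNAs, held 40.5% of all RPKM in control and 31.9% in labelled knockout.

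The defining stromal markers were present in both libraries. Of these, Col1a1, a chain of type I collagen, was at least 2-fold higher, at 32.9 RPKM in control against 83.7 RPKM in labelled knockout. Pdgfra, the receptor for platelet-derived growth factor that marks fibroblasts, was at 17.96 against 13.3 RPKM. Hoxa10, a homeobox gene of the uterine stroma, was at 22.2 against 27.5 RPKM, and Hand2, a transcription factor induced by progesterone, was at 4.80 against 4.57 RPKM. Epithelial markers were nearly absent: none of 18 general epithelial, 10 luminal or 9 glandular markers was kept, and their highest value was 0.874 RPKM. Their summed level was 2.01-fold lower in labelled knockout for general epithelium, from 3.62 RPKM in control, and was 0.935 against 0.221 RPKM for luminal and 0.597 against 0.147 RPKM for glandular markers, and 2 luminal and 2 glandular markers were listed at 0 in both. Endothelial markers, all 18 kept, summed to 79.7 against 76.2 RPKM with a median log2 difference of -0.05, and 9 pericyte markers summed to 40.9 against 39.9 RPKM. Vessel markers were thus at like levels in both libraries, while leukocyte markers, given with the immune genes, were lower in labelled knockout and smooth muscle markers somewhat higher.

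Across the 7018 genes the libraries were close. The median log2 difference was 0.07, and the 5th and 95th percentiles were -0.32 and 0.40. On the same scale 96.5% of genes differed by less than 1.5-fold. The pseudocount of 1 in it makes the differences of low genes smaller than their plain ratios. Since 64.9% of all genes lay above 0, counts above 0 in a list are to be read against that share. Past the upper threshold lay 33 genes (0.47%), higher in labelled knockout, and past the lower threshold 37 genes (0.527%). The genes above the upper threshold were led by matrix proteins and by secreted or receptor proteins, and the genes below the lower threshold by antigen presentation and interferon-stimulated genes. Just outside the thresholds lay Rmnd5b (0.97), Manf (0.97) and Zxdc (0.96) on the higher side and Gbp4 (-0.999), S100a4 (-0.996) and Serpina3n (-0.99) on the lower side.

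**Figure D1:**
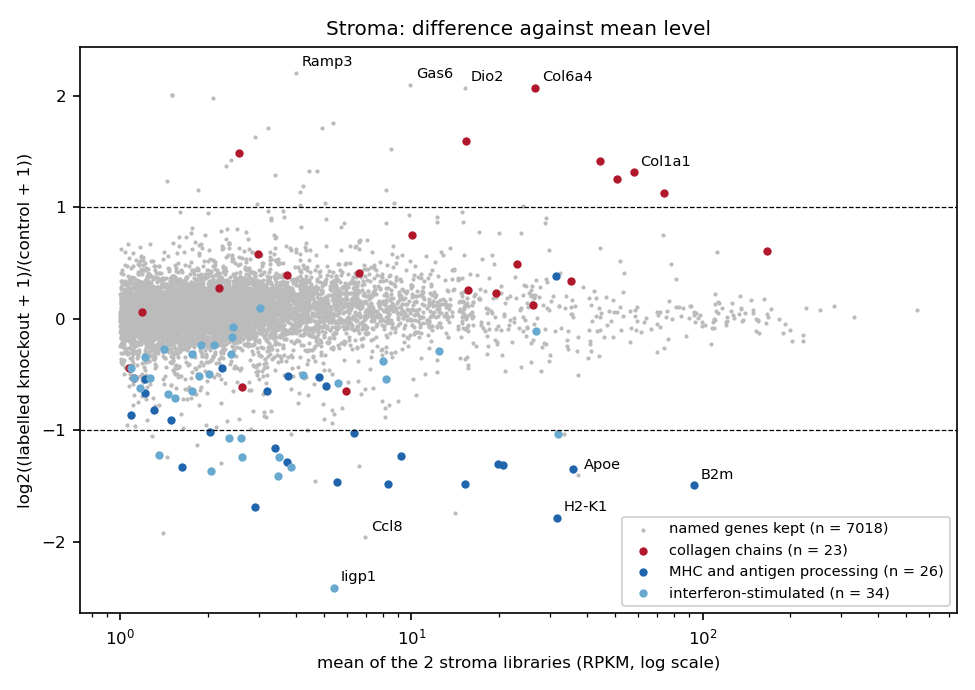
Log2((labelled knockout + 1)/(control + 1)) in stroma (vertical axis) against the mean of both libraries in RPKM (horizontal axis, log scale), with 1 point for each of 7018 named genes. Dashed lines mark the thresholds of 1 and -1. Collagen chains (red) reach above the upper line, and genes of the MHC (dark blue) and interferon-stimulated lists (light blue) lie mostly below 0.

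Collagen genes made up the largest group among the higher genes, with 7 of 23 kept chains at least 2-fold higher in labelled knockout and none at least 2-fold lower. Collagen VI forms a beaded network of fine filaments around cells, and 5 of the 7 genes encode its chains. The chains with the largest ratios are encoded by nearby genes on chromosome 9. Col6a4 (chr9:105892649-105999022, mm9) was at 9.62 RPKM in control against 43.7 RPKM in labelled knockout, 4.55 times higher with limits of 4.38 and 4.73. Col6a6 (chr9:105591747-105730415) was at 0.876 against 4.25 RPKM, 4.85 times higher with limits of 4.07 and 5.83. Their ratios exceeded those of Col6a3 (7.15 against 23.6 RPKM, 3.30 times), Col6a2 (23.7 against 64.9 RPKM, 2.74 times) and Col6a1 (2.44 times), with counting limits that did not meet. The fibrillar chains of type I were higher too, by ratios under that of Col6a2, though Col1a1 lay above Col6a1. Col1a2, which pairs with the product of Col1a1 in the type I fibre, was at 45.9 against 102 RPKM, 2.21 times the control level (limits 2.17 and 2.26), beside 2.54 for Col1a1. Col3a1 was the most abundant chain at 132 against 202 RPKM, and Col5a1, whose product starts fibre assembly, was at 7.23 against 12.9 RPKM. In all 19 of the 23 chains lay above 0, with a median of 0.42 beside 0.07 for all genes, and their summed level was 425 against 770 RPKM. The 4 chains below 0 were Col4a5, Col4a6, Col23a1 and Col24a1. Col4a5 and Col4a6, basement membrane chains that assemble together, were at 7.51 against 4.44 RPKM and at 3.38 against 1.86 RPKM, while the common basement membrane chain Col4a1 was at 30.9 against 39.5 RPKM. In captured tissue, fewer cells of a type and less RNA per cell cannot be told apart, here and in all results that follow.

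Enzymes that modify and crosslink collagen differed less than the chains. Loxl2, a lysyl oxidase that crosslinks collagen, was at 4.69 RPKM in control against 11.7 RPKM in labelled knockout, 2.50 times the control level (limits 2.28 and 2.74), and was the single member of 25 kept past the threshold. In all 19 of 25 lay above 0, with a list median of 0.29. Sparc, a collagen-binding matrix protein, was at 54.1 against 91.7 RPKM. The lysyl hydroxylase gene Plod1 was at 4.30 against 7.12 RPKM, the prolyl hydroxylase gene P4ha2 at 1.88 against 3.24 RPKM, and Serpinh1, a collagen chaperone, at 42.8 against 61.6 RPKM. Sec24d, a coat protein of the vesicles that carry collagen out of the endoplasmic reticulum, was at 3.22 against 5.46 RPKM. The lysyl oxidase genes Loxl1 and Loxl3 did not share this pattern, at 1.60 against 1.21 RPKM and at 1.09 against 1.07 RPKM.

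Other matrix genes were mostly near the level of all genes, with a few members far above it. Among proteoglycans 2 of 18 were at least 2-fold higher, and the median was 0.14. Ogn, which encodes the small leucine-rich proteoglycan osteoglycin, was at 1.78 against 8.10 RPKM, 4.54 times the control level (limits 3.89 and 5.35), at a locus that the deposited table shares among several genes. Srgn, the proteoglycan of secretory granules in blood cells, was at 15.7 against 32.8 RPKM, a difference that dropped under the threshold when the libraries were rescaled. The abundant decorin gene Dcn was nearly equal, at 42.7 against 43.6 RPKM. Among matricellular and elastic fibre genes 3 of 31 were at least 2-fold higher, with a median of 0.21. Smoc2, a calcium-binding matrix protein related to Sparc, was at 2.10 against 6.77 RPKM. Mfap4, a microfibril-associated protein, was at 2.22 against 6.09 RPKM, and Thbs1, the adhesive glycoprotein thrombospondin, at 2.96 against 7.16 RPKM, the latter under the threshold on rescaling. Efemp1, a fibulin, ran the other way at 10.6 against 5.67 RPKM.

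Among matrix proteases and their inhibitors, 2 of 35 were at least 2-fold higher and 1 was at least 2-fold lower, with a median of 0.14. A2m, which encodes the broad protease trap alpha-2-macroglobulin, had the largest ratio of all genes kept that were detected in both libraries (0.245 against 3.92 RPKM, 16.01 times higher, limits 11.8 and 21.7). Adamts7, a secreted metalloprotease, was at 2.26 against 7.19 RPKM. Htra1, a secreted serine protease, was at 6.43 against 13.2 RPKM, and Mmp2, which cleaves collagen fragments and basement membrane, was at 15.8 against 22.7 RPKM. The member below the lower threshold, Ctss, encodes the lysosomal protease cathepsin S of antigen-presenting cells and is described with the immune genes.

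**Figure D2:**
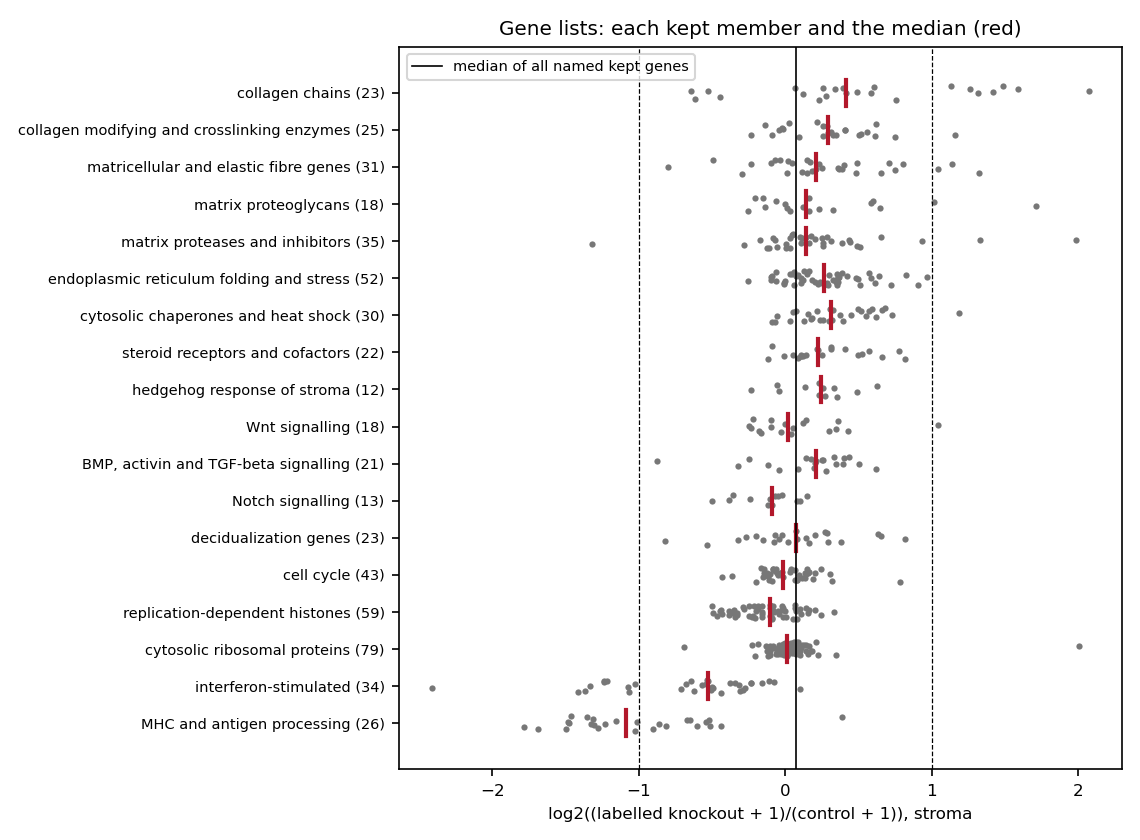
Log2((labelled knockout + 1)/(control + 1)) in stroma (horizontal axis) for the kept members (grey points) of 18 gene lists, with the number kept in brackets and the median of each list in red. The black line is the median of all 7018 genes at 0.07. Collagen chains have a median of 0.42, and the interferon-stimulated and MHC lists have medians of -0.53 and -1.09.

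Several of the largest positive differences were in single components of signalling systems. Ramp3 had the largest log2 difference of all genes, 2.21, at 0.781 RPKM in control against 7.23 RPKM in labelled knockout, 9.25 times the control level (limits 6.53 and 13.4.) RAMP3 is an accessory protein that turns the calcitonin receptor-like receptor, encoded by Calcrl, into a receptor for adrenomedullin. Calcrl itself was at 4.66 against 3.81 RPKM and the sister gene Ramp2 at 8.10 against 8.23 RPKM, while Ramp1 was at 2.28 against 1.51 RPKM. The ligand gene Adm was low, at 0.485 against 1.10 RPKM, and was not kept. Among these genes Ramp3 alone was past the threshold. Ramp3 (chr11:6550151-6577478, mm9) shares its locus with another gene in the deposited table.

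Gas6, the vitamin K-dependent ligand of the receptor kinases TYRO3, AXL and MERTK, was at 3.12 RPKM in control against 16.7 RPKM in labelled knockout, 5.34 times the control level (limits 4.74 and 6.02.) Its receptors were near equal, with Axl at 5.73 against 5.35 RPKM and Mertk at 1.29 against 1.36 RPKM, and Tyro3 was at 0.402 against 0.478 RPKM. Dio2 (chr12:91962992-91976878), which encodes the deiodinase that converts thyroxine into active thyroid hormone, was at 5.24 against 25.3 RPKM, 4.82 times the control level (limits 4.55 and 5.12.) The opposing deiodinase gene Dio3 was listed at 0 in control and reached 0.0100 RPKM in labelled knockout, and the thyroid hormone receptor gene Thra was at 2.18 against 3.07 RPKM. In these systems the ligand or the enzyme was past the threshold, and no kept receptor was.

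Among secreted signals, Cxcl14, a chemokine, was at 1.92 RPKM in control against 8.84 RPKM in labelled knockout, 4.61 times higher (limits 3.84 and 5.55). Wnt5a, a Wnt ligand made by uterine stroma, was at 5.34 against 12.1 RPKM, the single gene of 18 kept Wnt genes past the threshold in a list whose median was 0.02, and it dropped under the threshold when the libraries were rescaled. Scube1, a secreted and membrane-bound glycoprotein, was at 2.40 against 5.91 RPKM, and likewise dropped under it on rescaling. Il15, a cytokine on which uterine natural killer cells depend, was at 1.57 against 3.48 RPKM, 2.22 times the control level (limits 1.69 and 2.94), which stayed under the threshold at a log2 difference of 0.80. Among receptors, P2ry14, which binds UDP-sugars, was at 0.968 against 5.44 RPKM (limits of the ratio 4.29 and 7.40), at a locus shared with several genes. The neurotrophin receptor gene Ngfr was at 0.842 against 3.96 RPKM, 4.70 times the control level (limits 3.87 and 5.75.)

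The remaining higher genes fell into different classes. Atp8a1, a flippase that moves phospholipids across membranes, was at 3.92 RPKM in control against 13.1 RPKM in labelled knockout (limits of the ratio 3.16 and 3.56), and the small GTPase gene Arl4c at 1.54 against 5.23 RPKM. Gadd45g, a gene induced by stress, was at 0.904 against 4.89 RPKM (limits of the ratio 3.78 and 7.98). Akr1c14, a hydroxysteroid dehydrogenase, was at 0.456 against 2.43 RPKM. Aqp1, the water channel of small vessels, was at 0.765 against 2.92 RPKM, and Gsr, glutathione reductase, at 1.59 against 4.30 RPKM. Among 38 kept antioxidant genes Gsr alone passed the threshold, which it did not on rescaling, with a list median of 0.04. Ndufs5 and Rpl26, of the respiratory chain and the ribosome, were listed at 0 in control but at 3.02 RPKM each in labelled knockout. Both are housekeeping genes at loci shared with another gene, and their other 75 and 78 list members had no such difference, so a value of 0 is read here only as listed at 0.

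**Figure D3:**
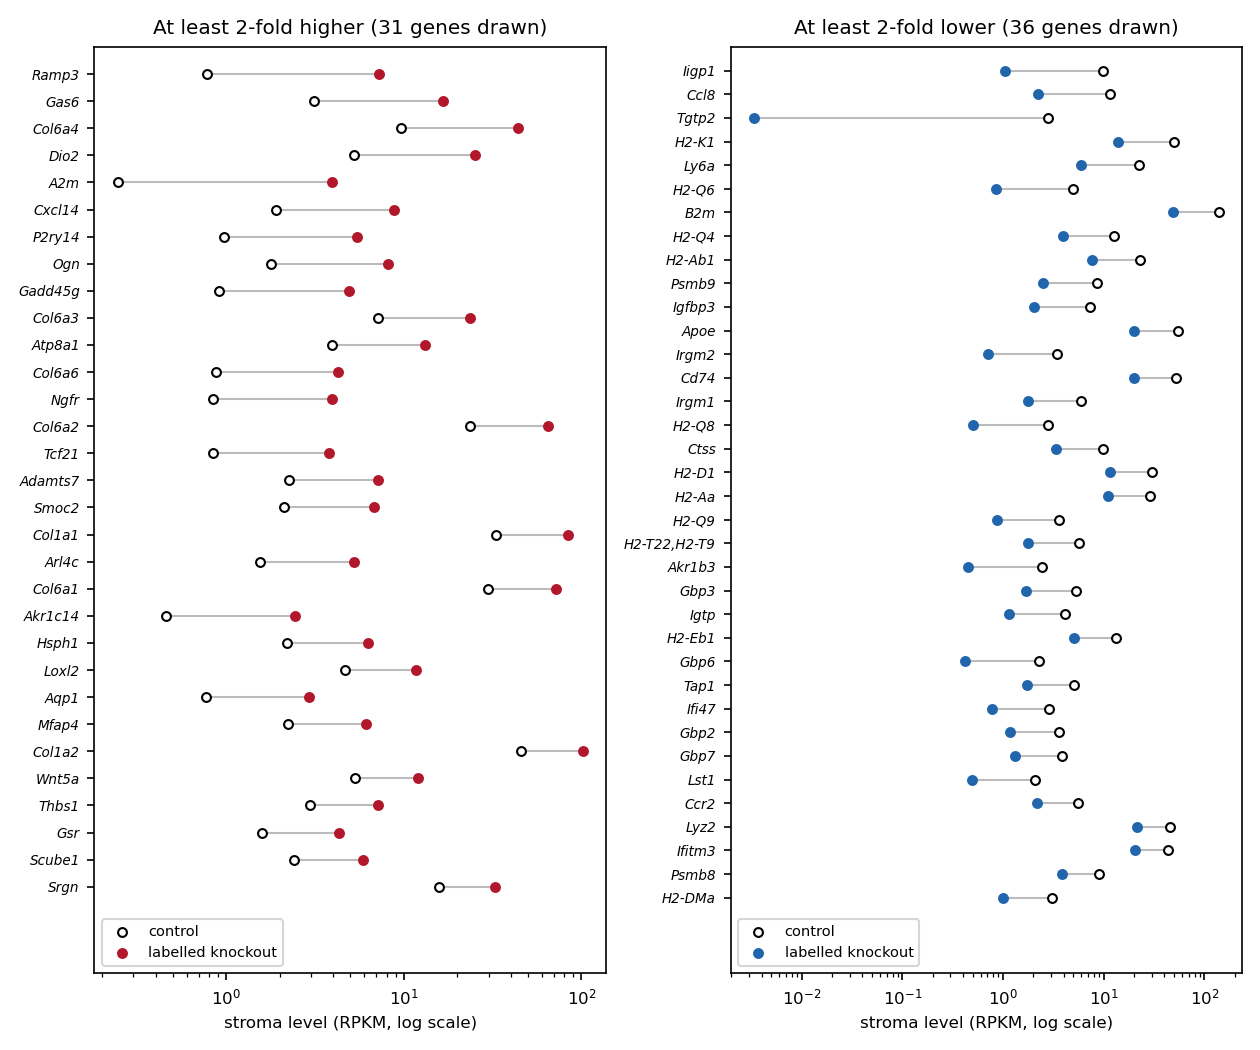
Levels in RPKM (horizontal axes, log scale) of the named genes at least 2-fold higher (left, 31 of 33 genes) and at least 2-fold lower (right, 36 of 37 genes) in labelled knockout, ordered by log2 difference, with control as open and labelled knockout as filled circles. Ndufs5 and Rpl26, listed at 0 in control, are left out. The bars of Ramp3 and A2m are the widest on the left, and Tgtp2, which rested on about 1 read in labelled knockout, has the widest on the right.

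In the signalling lists given next no kept gene was at least 2-fold apart, beside 0.997% of all genes. Lists of 8 to 22 genes are too small to be told from that share. The medians of the steroid receptor, hedgehog and BMP lists lay above the 75th percentile of all genes, 0.19. Of 22 kept genes for steroid receptors and their cofactors none was at least 2-fold apart, and 19 lay above 0, with a median of 0.22. Within it the estrogen receptor gene Esr1 was at 6.02 RPKM in control against 7.72 RPKM in labelled knockout, and Hsd11b2, which inactivates glucocorticoids, at 12.4 against 21.9 RPKM. Of 12 kept hedgehog genes 9 lay above 0, near the share of all genes, with a median of 0.25, among them the signal transducer gene Smo at 4.50 against 6.72 RPKM and the receptor gene Ptch1 at 4.22 against 5.29 RPKM. In the list of BMP, TGF-beta and activin genes 16 of 21 members lay above 0, again near the share of all genes, with a median of 0.21. Id2, an inhibitor of differentiation, was its lowest member at 4.40 against 1.94 RPKM, while Id1 was at 2.73 against 4.29 RPKM and Fstl1, a secreted follistatin-like protein, at 23.2 against 36.2 RPKM. The activin subunit gene Inhbb was not kept at its mean level, but was at 0.00675 RPKM in control against 1.34 RPKM in labelled knockout. The Notch list had most members below 0 (10 of 13, median -0.09), led by the transcription factor gene Rbpj at 6.43 against 4.26 RPKM. In the list of fibroblast growth factor and ErbB signalling, 8 genes were kept and none was 2-fold apart. Its lowest member was Hgf, the hepatocyte growth factor gene that the list also holds, at 2.82 against 1.63 RPKM.

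Stromal transcription factors and decidualization genes were close to the background. Of 29 kept stromal transcription factors 1 was at least 2-fold higher, Tcf21, at 0.843 against 3.78 RPKM, and the median was 0.09. Twist2 was at 4.80 RPKM in control against 8.43 RPKM in labelled knockout and Prrx1 at 1.79 against 3.34 RPKM, both factors of mesenchymal cells. The homeobox genes Hoxa11 (10.9 against 10.5 RPKM) and Hoxd10 (6.67 against 9.15 RPKM) differed less. Of 23 kept decidualization genes none was 2-fold apart on the log2 scale used, and 13 lay above 0. The gap junction gene Gja1 was at 3.75 against 6.46 RPKM and the cytokine receptor gene Il6st at 10.4 against 16.7 RPKM, whereas Lgmn, a lysosomal protease, was at 7.11 against 3.59 RPKM and Cited2, a transcriptional coregulator, at 1.46 against 0.700 RPKM. Of 43 kept cell cycle genes none was 2-fold apart on that scale, 21 lay above 0 and the median was -0.01. The proliferation marker Mki67 was at 6.75 against 6.26 RPKM, and Ccnd2, a cyclin that starts the cycle, had the largest difference at 1.37 against 3.08 RPKM.

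The list of protein folding and stress genes of the endoplasmic reticulum lay above the median of all genes by a small amount. Of 52 kept members 43 lay above 0 and none was at least 2-fold apart on the log2 scale used, with a median of 0.26. Beside Hspa5, the main chaperone of this compartment, at 19.9 RPKM in control against 38.2 RPKM in labelled knockout, the largest differences were in Manf (2.12 against 5.10 RPKM), a secreted stress protein, and Herpud1 (2.73 against 5.61 RPKM) and Syvn1 (1.54 against 2.96 RPKM), which act in the disposal of misfolded proteins. Creld2, a secreted chaperone, was at 1.82 against 3.65 RPKM. The transcription factors of this response differed less: Atf6 was at 1.25 against 1.24 RPKM, and Atf4 at 5.02 against 5.48 RPKM. Cytosolic chaperones had 27 of 30 members above 0 and a median of 0.31. Hsph1, a cochaperone that exchanges nucleotide on HSP70, was the 1 member past the threshold, at 2.21 against 6.30 RPKM. Hspa8 was the most abundant member at 89.0 against 135 RPKM, and the heat-inducible genes Hspa1a and Hspa1b were at 0.289 against 1.52 RPKM and at 0.196 against 1.62 RPKM, below the level at which genes were kept.

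The upstream sequences of this list held a known element of the stress response, CCAAT and CCACG with any 9 bases between. It was found on either strand in 8 of 48 windows of 250 bases before the start of kept members (16.7%), for the 41 of 52 symbols that matched. The share was 0.147% of windows of all genes kept and 0.113% of all 32851 windows of the RefSeq table. No window of the genes at least 2-fold higher or lower held it. Since the list was made of genes of this response, its share describes the list and says nothing of the difference between the libraries. Sequences are from RefSeq (GRCm38.p6), read on the strand of the gene and ending at the base before its start, and capitals mark the match. Hspa5 (chr2:34771940-34772089, plus strand) and Syvn1 (chr19:6046426-6046575, plus strand) carried it in the forward direction, and Creld2 (chr15:88819496-88819645, plus strand) as the reverse complement. They are shown because these 3 genes had among the largest differences of the list. Manf and Herpud1 had larger differences than Syvn1 and Creld2, but were not among the members in which the element was found. Whether the element goes with the size of the difference was not tested.
Hspa5: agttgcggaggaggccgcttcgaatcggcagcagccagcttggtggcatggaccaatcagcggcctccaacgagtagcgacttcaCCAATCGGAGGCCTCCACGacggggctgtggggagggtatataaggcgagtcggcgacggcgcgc
Syvn1: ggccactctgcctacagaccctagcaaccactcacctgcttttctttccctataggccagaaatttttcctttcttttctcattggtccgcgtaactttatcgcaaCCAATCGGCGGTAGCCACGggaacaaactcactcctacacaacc
Creld2: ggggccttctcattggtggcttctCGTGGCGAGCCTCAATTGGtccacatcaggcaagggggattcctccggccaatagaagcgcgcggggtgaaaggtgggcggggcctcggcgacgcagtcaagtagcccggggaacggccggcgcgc
A match of letters is a description and says nothing of binding.

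Antigen presentation was the group with the largest negative difference. Of 26 kept genes of the MHC (the class I and class II molecules that display peptides to T cells) and of antigen processing, 15 were at least 2-fold lower in labelled knockout, 25 lay below 0, and the median was -1.09. Their summed level was 451 RPKM in control against 190 RPKM in labelled knockout. The class I heavy chain gene H2-K1 (chr17:34132957-34137278, mm9), at 49.7 against 13.7 RPKM, was 3.62-fold lower with limits of 3.38 and 3.87, and its partner B2m was at 139 against 48.5 RPKM. H2-D1, the other classical class I gene, was at 29.9 against 11.4 RPKM, and the nonclassical genes H2-Q4 and H2-Q6 were at 12.7 against 3.91 RPKM and at 4.95 against 0.841 RPKM. Class II chains were lower to a like degree. H2-Ab1 was at 22.9 against 7.57 RPKM, 3.02-fold lower with limits of 2.70 and 3.37, H2-Aa 2.60-fold lower from 28.6 RPKM and H2-Eb1 at 13.3 against 5.08 RPKM. Cd74, the invariant chain that guards the class II groove, was at 52.1 against 19.8 RPKM. The peptide supply to class I was lower too. Psmb9 and Psmb8, subunits of the immunoproteasome, were at 8.61 against 2.48 RPKM and at 8.87 against 3.84 RPKM, and the peptide transporter gene Tap1 was at 5.06 against 1.72 RPKM. Tap2, the other transporter subunit, was at 4.13 against 2.27 RPKM. Of the factors that switch on these genes, Nlrc5 (class I) was at 1.94 against 0.670 RPKM and Ciita (class II) at 0.766 against 0.320 RPKM. Rfx5, a DNA-binding factor of the same promoters that is not among the 26, ran the other way at 1.16 against 1.68 RPKM (limits of the ratio 1.22 and 1.72). The only member above 0 was Calr, the calreticulin gene, which is also on the folding list. H2-DMa, which helps load class II, was at 3.06 against 1.01 RPKM. The H2 genes are close copies of each other and counting may have divided their reads, so the value of any single H2-Q or H2-T gene is uncertain.

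Of the 37 lower genes 15 lay on chromosome 17, which is 4.16% of its 361 kept genes, beside 0.527% of all genes kept. Together these 15 span chr17:34132957-36179647 (mm9), from H2-K1 to H2-T22. Within that span, which the lower genes set, 14 of 20 kept H2 or MHC list genes were at least 2-fold lower, with a median of -1.26. Of 40 other kept genes there only Lst1, a leukocyte gene at 2.09 RPKM in control against 0.491 RPKM in labelled knockout, was at least 2-fold lower, and their median was 0.01.

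Interferon-stimulated genes were lower as a list, by less than the MHC genes. Of 34 kept, 33 lay below 0 and 10 were at least 2-fold lower, with a median of -0.53. Of the 10, 8 were GTPases of the families that interferon gamma induces. Iigp1 had the largest negative difference of all genes, at 9.83 RPKM in control against 1.04 RPKM in labelled knockout, which is 9.49-fold lower (limits 8.13 and 11.1). The related genes Irgm2, Irgm1 and Igtp were at 3.40 against 0.705 RPKM, 5.94 against 1.75 RPKM and 4.08 against 1.16 RPKM. The guanylate-binding protein genes Gbp3, Gbp6, Gbp2 and Gbp7 were at 5.35 against 1.69, 2.30 against 0.417, 3.56 against 1.17 and 3.87 against 1.32 RPKM. Tgtp2 and Ifi47, GTPases outside the list, each lie at a locus that the deposited table shares among genes. Ifi47 was at 2.88 against 0.776 RPKM. Tgtp2 was at 2.80 against 0.00335 RPKM, on about 1 read, so its ratio of 0.0012 has limits of 5.52e-05 and 0.0123. The Gbp, Irgm and Tgtp genes, too, have close copies, so single values are uncertain.

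Most other interferon-stimulated genes were below the threshold in size. Stat2 was at 2.02 RPKM in control against 0.890 RPKM in labelled knockout, Oasl2 at 1.63 against 0.707 RPKM and Irf7 at 1.41 against 0.777 RPKM. Ifit1 and Isg15, common markers of type I interferon, were below the level at which genes were kept, at 0.508 against 0.260 RPKM and at 0.989 against 0.908 RPKM. The cytokine gene Ifng was at 0.0490 RPKM in control and listed at 0 in labelled knockout. Its receptor genes Ifngr1 and Ifngr2 were at 2.58 against 1.78 RPKM and at 1.98 against 1.70 RPKM. Ifitm3, a membrane protein that blocks viral entry, was past the threshold at 43.1 against 20.6 RPKM, while the related genes Ifitm2 and Ifitm1 were at 28.0 against 25.8 RPKM and 13.8 against 11.1 RPKM.

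The upstream sequences of the lower genes held the core of the interferon-stimulated response element, GAAA, any 2 bases and GAAA, more often than the background. It was found on either strand in 10 of 32 windows (31.3%) of the 27 symbols that matched the RefSeq table. The share was 3 of 30 windows (10%) for the 24 matched symbols at least 2-fold higher. It was 2.57% of windows of all genes kept and 2.98% of all windows in the table. The lower genes with it include interferon-induced GTPases of the Gbp and Irgm families, which have close copies. These windows are therefore not independent, and the excess was not tested. The gamma-activated pattern TTCNNNGAA, added after values were seen, was found in 15.6% of windows of lower genes, 3.33% of higher genes, 5.45% of all genes kept and 7.02% of all windows. TAATTG, a core bound by many homeobox proteins, was in 6.25% of windows of lower genes and 6.67% of higher genes, against 4.19% of all genes kept and 7.17% of all windows, so neither group stood apart in it. The 5 windows printed hold the last 150 bases before the start, and were chosen to show the pattern in different kinds of gene, the GTPases, B2m and Ctss, and not by the size of their differences. Capitals mark this pattern or its reverse complement and TTCNNNGAA. Matches of these patterns did not overlap each other in the windows printed, while 2 matches of the GAAA pattern overlapped in Gbp3. The windows are Irgm2 (chr11:58214827-58214976, plus strand), Igtp (chr11:58199406-58199555, plus strand), Gbp3 (chr3:142559894-142560043, plus strand), B2m (chr2:122147537-122147686, plus strand) and Ctss (chr3:95526636-95526785, plus strand).
Irgm2: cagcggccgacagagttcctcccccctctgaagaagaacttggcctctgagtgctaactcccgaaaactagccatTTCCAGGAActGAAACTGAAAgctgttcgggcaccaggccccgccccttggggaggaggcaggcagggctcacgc
Igtp: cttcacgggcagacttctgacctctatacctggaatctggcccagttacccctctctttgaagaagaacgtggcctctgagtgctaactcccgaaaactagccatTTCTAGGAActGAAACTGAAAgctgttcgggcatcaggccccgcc
Gbp3: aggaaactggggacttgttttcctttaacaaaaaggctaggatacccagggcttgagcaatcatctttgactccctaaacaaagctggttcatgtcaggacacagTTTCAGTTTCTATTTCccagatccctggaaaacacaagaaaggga
B2m: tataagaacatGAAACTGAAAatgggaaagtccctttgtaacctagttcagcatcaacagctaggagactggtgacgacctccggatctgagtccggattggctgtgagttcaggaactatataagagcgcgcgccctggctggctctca
Ctss: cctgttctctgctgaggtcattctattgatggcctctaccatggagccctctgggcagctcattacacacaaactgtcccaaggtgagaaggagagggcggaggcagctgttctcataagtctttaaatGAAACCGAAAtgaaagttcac
In Irgm2 and Igtp, neighbouring genes on chromosome 11, both patterns lay 2 bases apart in like surroundings.

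Leukocyte markers moved with the immune genes. All 12 general leukocyte markers were kept and all lay below 0, with a median of -0.60, and their summed level was 56.0 RPKM in control against 31.3 RPKM in labelled knockout, 1.79-fold lower. Ptprc, which encodes the common leukocyte antigen CD45, was at 3.58 against 1.94 RPKM. Of 14 macrophage markers 11 were kept, all below 0 with a median of -0.83, 2 of them (Ctss and Lyz2) at least 2-fold lower, and their summed level of 95.3 against 45.0 RPKM was 2.12-fold lower. The lysozyme gene Lyz2 was at 45.1 against 21.5 RPKM, the complement gene C1qa at 10.8 against 5.43 RPKM and the macrophage growth factor receptor gene Csf1r at 2.94 against 1.64 RPKM. Of 12 markers of uterine natural killer cells 6 were kept, all below 0 with a median of -0.50 (summed 20.6 against 13.0 RPKM), with Klrd1 at 1.93 against 0.702 RPKM and Gzmb, a granule protease, at 3.64 against 2.82 RPKM. Red blood cell genes were lower too, summing to 10.8 against 6.44 RPKM. The MHC list was 2.38-fold lower by summed level, the interferon-stimulated list 1.71-fold lower and Iigp1 9.49-fold lower, beside 2.12-fold for macrophage markers. What part the leukocyte markers have in the differences of the MHC and interferon-stimulated lists was not tested. Among cytokine and chemokine genes, 19 kept with a median of -0.02 and 9 above 0, a pair was past the lower threshold. Ccl8, which attracts monocytes, was at 11.6 against 2.24 RPKM, 5.17-fold lower with limits of 3.65 and 7.34, and Ccr2, the receptor of monocytes, at 5.54 against 2.19 RPKM. Cxcl14 was past the upper threshold.

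**Figure D4:**
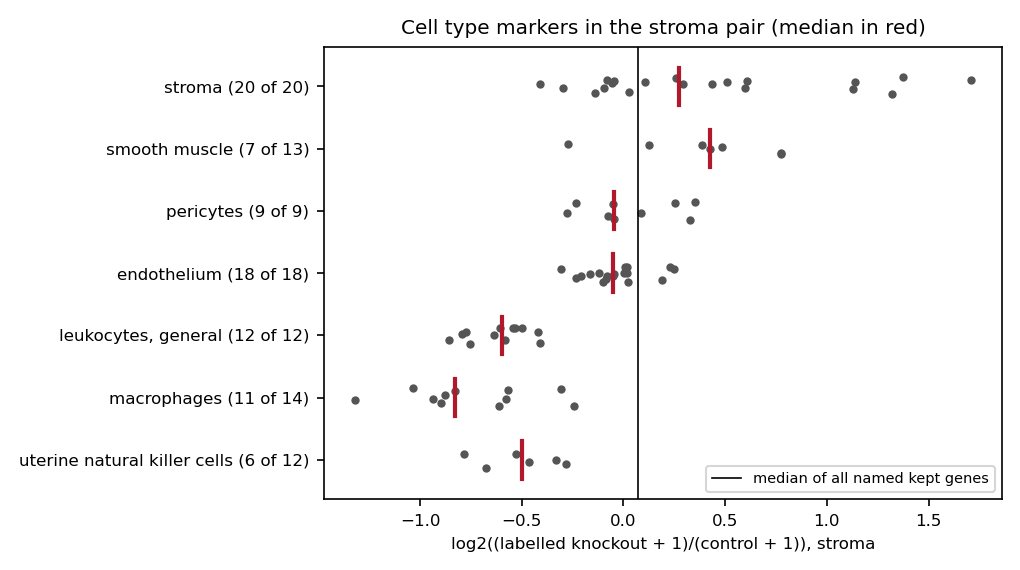
Log2((labelled knockout + 1)/(control + 1)) in stroma (horizontal axis) for kept markers of 7 cell types (grey points; kept of all in the table in brackets), with medians in red and the median of all named genes kept as the black line. Markers of leukocytes, macrophages and uterine natural killer cells all lie below 0, and those of endothelium and pericytes lie around it.

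The other markers followed other directions. Stromal markers, all 20 kept, had 5 at least 2-fold higher, 13 above 0, which is the share of all genes, and a median of 0.28, with a summed level of 463 RPKM in control against 652 RPKM in labelled knockout. The 5 are Ogn, Tcf21, Col1a1, Mfap4 and Col1a2, so most of them are matrix genes, while Vim, which encodes the filament protein of mesenchymal cells, was at 77.0 against 62.4 RPKM. Smooth muscle markers had 7 of 13 kept, 6 above 0, and a median of 0.42 (29.6 against 38.3 RPKM), which was 0.14 with no minimum of expression, with the actin gene Acta2 at 5.58 against 8.21 RPKM and the defining myosin gene Myh11 at 0.539 against 0.640 RPKM. The part of these markers in the differences of the matrix genes was not tested.

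A few lower genes lay outside the immune lists, though Apoe and Ly6a among them have links to macrophages or interferon. Igfbp3, which binds insulin-like growth factors, was at 7.32 RPKM in control against 2.04 RPKM in labelled knockout, which is 3.60-fold lower (limits 3.13 and 4.15), and was the single gene of 12 kept members of its axis past a threshold. Igf1 was at 17.5 against 13.6 RPKM and Igfbp6 at 8.86 against 13.6 RPKM. Apoe, a lipid carrier made in quantity by macrophages, was at 54.5 against 20.0 RPKM, and its cholesterol-exporting partner Abca1 at 4.80 against 3.07 RPKM. Ly6a, a surface antigen of stem cells and of vessels that interferon also induces, was at 22.3 against 5.99 RPKM. Akr1b3, an aldose reductase able to make prostaglandin F, was at 2.44 against 0.453 RPKM, at a shared locus. Among the other 5 kept prostaglandin genes none passed a threshold, with the receptor gene Ptger4 lowest at 3.69 against 2.55 RPKM.

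Ribosomal, respiratory and glycolytic lists lay near the median of all genes, with medians of 0.01 for 79 ribosomal protein genes, 0.10 for 76 respiratory chain genes and 0.01 for 16 glycolytic genes. Histone genes tied to replication lay lower, with 45 of 59 below 0 and a median of -0.11, and none was past a threshold. Angiogenic genes, 27 kept, had a median of 0.00, in which Vegfa, the main vessel growth factor, was at 2.05 RPKM in control against 3.62 RPKM in labelled knockout. Integrins and adhesion receptors, 18 kept, had a median of 0.09 and none past a threshold. Medians were 0.14 for 30 genes of lipid metabolism, 0.15 for 12 retinoid genes, 0.24 for 14 immediate early genes, 0.17 for 10 genes of ion and water transport and 0.23 for 6 clock genes.

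The same genes were then set beside luminal epithelium, whose table was treated separately and whose control library was estimated at 6.36 M reads against 90.1 M in labelled knockout. There 259 of 7028 named genes (3.69%) lay past the upper threshold and 125 (1.78%) past the lower. Of all 7028, 2695 lay below 0, and the median was 0.09. Of the 37 genes lower in stroma, 28 were kept in epithelium, 26 of them lay below 0, and 22 were at least 2-fold lower, with a median of -1.74. Tap1, for example, was at 9.45 RPKM in control against 1.32 RPKM in labelled knockout in epithelium, and Psmb9 at 10.5 against 1.51 RPKM. The 2 genes above 0 there were Ifitm3, at 90.5 against 163 RPKM, and Ly6a, at 6.58 against 7.89 RPKM. Of the 33 genes higher in stroma, 12 were kept in epithelium, none was at least 2-fold higher there and 2 were at least 2-fold lower, with a median of -0.48. Ramp3, Gas6, Dio2 and A2m were not kept there. Wnt5a was at 10.5 against 14.6 RPKM in epithelium, and Gsr at 13.1 against 4.67 RPKM, opposite to stroma. Interferon-stimulated genes had 26 of 46 kept members at least 2-fold lower in epithelium, against 10 of 34 in stroma, and the folding list had a median of 0.52 there against 0.26. None of these contrasts between compartments was tested.

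**Figure D5:**
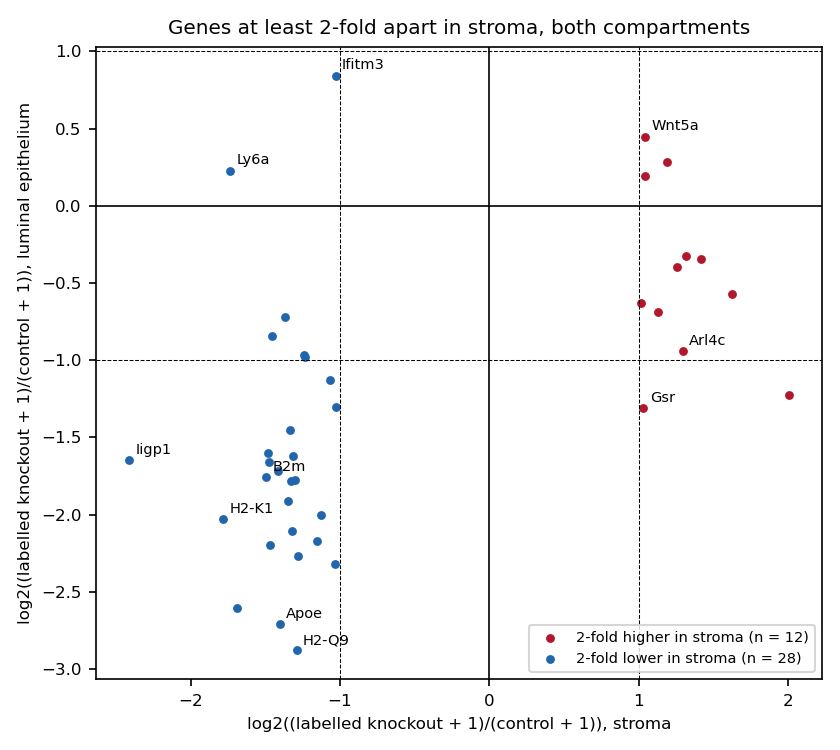
Log2((labelled knockout + 1)/(control + 1)) in luminal epithelium (vertical axis) against the same in stroma (horizontal axis) for genes at least 2-fold apart in stroma and kept in both tables. Of 28 genes lower in stroma (blue) 26 lie below 0 in epithelium, and 9 of 12 genes higher in stroma (red) lie below 0 there. Of all 7028 named genes kept in epithelium, 2695 lie below 0.

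In the authors' deposited table, which compares the same libraries and has no replicates either, 5 stroma rows are marked significant against 94 in epithelium. The higher ones are Inhbb (q-value 7.48e-04), A2m (q-value 0.0115) and Chst13, a sulfotransferase (0.0390 against 0.793 RPKM, q-value 0.0428), and the lower ones are the unnamed models Gm5779 and 4930503E14Rik. Of the 70 genes at least 2-fold apart only A2m is among them. The smallest q-value in the authors' deposited table among the 37 lower genes is 0.122, for Iigp1.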

How the data were processed

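RNA from laser-captured stroma was sequenced as ribosome-depleted stranded total RNA, with 1 library for each genotype. The authors deposited 1 table for each compartment with 23235 rows. Its RPKM columns, 1 for each library, were computed by the authors, per the file headers. Each table also holds the authors' comparison of its libraries, deposited as log2 fold change (a ratio), p-value and q-value, and these are quoted only as theirs. The build mm9 and the tools Cufflinks 2.0.2, TopHat2 2.0.5, TopHat and CASAVA 1.8.2 are named in the submitters' processing notes. How each was set, and whether counting used strand, is not given in the sources used here, so reads of overlapping genes cannot be told apart.

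Log2 differences were taken within a table, since the tables may have been normalized separately. A pseudocount of 1 was used, which understates the differences of low genes. Genes with a mean under 1 RPKM, and small RNA and unnamed models (4538 rows), were left out. With 1 library a group no test was made. The values of 2 genes are not reported here, though the counts include them. The genes, all 33 gene lists and 12 marker lists were chosen with earlier results of these data known. By rule the text names Msx1, Msx2, the stromal markers, genes at least 2-fold apart, the 6 kept members of each list that differ most and defining markers of other cells. Outside that rule, and chosen after their values were seen, are partners and receptors of such genes (Msx1as, Rfx5, Adm, Calcrl, Ramp2, Axl, Mertk, Tyro3, Dio3, Thra, Ifng, Ifngr1, Ifngr2), list members further down or not kept (Atf4, Atf6, Calr, Ciita, Nlrc5, Tap2, Col4a1, Col4a5, Col4a6, Col5a1, Col23a1, Col24a1, Dcn, Esr1, Hoxa11, Hspa1a, Hspa1b, Ifit1, Ifitm1, Ifitm2, Igf1, Inhbb, Irf7, Isg15, Loxl1, Loxl3, Mki67, Mmp2, Oasl2, Stat2, Vim), genes just outside the thresholds and rows marked in the authors' deposited table.

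Depth was worked out from the spacing of low values times transcript length less 200 bases, with GENCODE M21 lengths, known for 99.5% of genes kept. Starts were raised by 1, since 6924 of 17033 loci matched an annotated gene when counted from 0, against 436 from 1. Promoter windows hold 250 bases. Steps were tested on simulated data. Python 3.11.15 was used with scipy 1.17.1, matplotlib 3.10.9, pandas 2.3.3 and numpy 2.4.6. Alternatives changed the pseudocount, the minimum level, the scaling and which genes were left out.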

Additional observations from a re-analysis of the deposited data

Results flagged for a closer look

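Gsr, which encodes glutathione reductase, had a log2 difference of 1.03 in stroma and -1.31 in luminal epithelium, so that its libraries lay in opposite order in the compartments. Ndufs5, a subunit of the respiratory chain, was likewise opposite, with 2.01 in stroma, where it was listed at 0 in control, and -1.23 in luminal epithelium. Neither difference between compartments was tested.

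Small RNA and unnamed models, left out of the comparison, held 79 rows past the upper and 86 past the lower threshold in stroma. Of these, small RNA gave 75 and 83 of 226 rows with a mean of at least 1 RPKM, with a summed level of 38990 RPKM in control and 28795 RPKM in labelled knockout, and unnamed models gave 4 and 3 of 479 rows.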

How the results depend on the processing

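No paired analysis was possible because each group has 1 library, and no library could be left out. Against 33 higher and 37 lower genes, a pseudocount of 0.1 RPKM gave 63 and 82, a minimum mean of 5 RPKM 14 and 17, and keeping small RNA and unnamed models 112 and 123. The other alternatives gave 27 to 36 higher and 29 to 46 lower, among them 27 and 29 without genes that share a locus or whose status is not OK, an alternative chosen after seeing the data. Scaling moved the median of all genes from 0.07 to between -0.0027 and 0.02, and under each of the 3 scalings Gsr, Scube1, Srgn, Thbs1 and Wnt5a dropped under the threshold. No result past a threshold reversed. Of the list medians under all alternatives, 246 stayed within an interval set by the spread of the list members and 20 did not, given next, but 24 of the 246 shifted by over 0.1. With no minimum these included smooth muscle markers (0.14), collagen chains (0.26), hedgehog genes (0.09) and uterine natural killer markers (-0.31), and with a minimum of 5 RPKM steroid receptor (0.49), decidualization (0.27) and cytokine genes (0.21). Of the values of single genes 888 stayed within their counting limits (within 1 where none could be had), which are wide for low genes, and 134 did not. The 20 medians follow. With a pseudocount of 0.1 they were -1.40 for MHC, -0.766 for interferon-stimulated, 0.36 for clock and -0.86 for leukocyte genes. With that minimum of 5 RPKM they were 0.39 for BMP, -1.33 for MHC and 0.39 for lipid genes. With no minimum they were 0.065 for BMP, -0.648 for MHC and -0.34 for interferon-stimulated genes. Without the 50 most abundant genes ribosomal protein genes were at -0.057. Scaled to upper quartiles, medians were -0.10 for cell cycle, -0.043 for antioxidant, -0.092 for ribosomal, 0.0097 for respiratory chain, -0.21 for histone and -0.14 for endothelial genes. Centred on the median, they were -0.085 for cell cycle, -0.033 for antioxidant and -0.057 for ribosomal genes. Medians of the Wnt, angiogenic, antioxidant, ribosomal and glycolysis lists, all within 0.1 of 0, changed sign with scaling, so no direction is given for them. The cause of these shifts was not tested. Genes under 1 RPKM rest on few reads, and differences there were not described as a group.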
